A study of Mus musculus with 3 samples.

Results

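The tubulin mRNAs described here are those of 10 mouse genes, chosen by symbol from a table of 15403 named genes: the alpha-tubulins Tuba1a, Tuba1b and Tuba1c, the beta-tubulins Tubb2a, Tubb2b, Tubb3, Tubb4b, Tubb5 and Tubb6, and the gamma-tubulin Tubg1. All 10 were present, and all 10 had a mean over the libraries above the minimum of 10 normalized counts used below. They were measured by RIP-seq, in which RNA held by an antibody's target protein is recovered from a cell extract and sequenced. The extract came from C2C12 cells, a mouse myoblast line that fuses into multinucleated muscle cells, at day 2 after transfer to medium with 2% horse serum. There were 3 libraries: 1 with an antibody against HuR, 1 with an antibody against YB-1 and 1 with control IgG, each from 500 µg of extract. The column names of all 3 libraries also carry the tag siCtl, which the labels do not explain. With 1 library per antibody there is no replicate check, and no difference below was tested.

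Alpha- and beta-tubulin form the heterodimer that polymerises into microtubules, and gamma-tubulin sits in the ring complex that nucleates them. When myoblasts differentiate, their microtubules are rebuilt from a centrosomal array into long parallel bundles nucleated from the nuclear surface. Alpha- and beta-tubulin mRNAs are also controlled by their own product: excess free tubulin causes decay of the mRNAs being translated, through recognition of the first residues of the nascent chain by TTC5. HuR, encoded by Elavl1, binds U-rich and AU-rich stretches, mostly in 3' UTRs, and is known to stabilise many mRNAs in muscle cells. YB-1, encoded by Ybx1, is an abundant cold-shock domain protein that packages cytoplasmic mRNA.

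The sequences below are shown because they are the features on which the tubulin mRNAs differ or agree. In alpha- and beta-tubulin mRNAs the coding start encodes the residues read in their autoregulation. Its first 12 bases are the same in Tuba1a, Tuba1b and Tuba1c, and other bases stand in Tubb2b, Tubb5 and Tubg1. Those of Tubb2b and Tubb5 differ in bases but encode the same residues, and those of Tubg1 encode others. The coding start is given as the first 24 coding bases, with the first 12 in capitals.
Tuba1a: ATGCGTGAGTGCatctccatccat
Tuba1b: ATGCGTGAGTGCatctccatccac
Tubb2b: ATGCGAGAGATCgtgcacattcag
Tubb5: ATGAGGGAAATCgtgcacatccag
Tubg1: ATGCCGAGAGAAatcatcacccta
The start codons lie on GRCm38 at chr15:98953451-98953453, chr15:98934333-98934335, chr13:34130231-34130233 and chr17:35838051-35838053 on the minus strand, and at chr11:101120194-101120196 on the plus strand. In Tuba1a and Tuba1b an intron separates the start codon in exon 1 from base 12 in exon 2.

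The 3' UTRs, by contrast, are not alike. The AU-rich pentamer ATTTA was searched on the transcript strand in the annotated 3' UTR of 1 GENCODE M21 transcript per gene. It occurred 2 times in Tubb3 (333 nt) and 2 times in Tubb5 (1061 nt), and once each in Tubb2b (723 nt) and Tubg1 (190 nt). Each occurrence is given in a window of 29 bases with ATTTA in capitals.
Tubb3 site 1: aagtccttcagtATTTAtggccaccccca
Tubb3 site 2: agccacctctgtATTTAtgttgcttattc
Tubb5 site 1: ccagtcagggccATTTAgaatccacctat
Tubb5 site 2: agtattatctccATTTAtatcctcccagc
Tubb2b site 1: acacagcacagaATTTAaaggagagtgaa
Tubg1 site 1: ttctctgagagtATTTAtctttaataaag
The windows lie in the last exon of each gene on GRCm38, at chr8:123421820-123421848 and chr8:123421887-123421915 (plus strand) for Tubb3, chr17:35834353-35834381 and chr17:35834254-35834282 (minus strand) for Tubb5, chr13:34126881-34126909 (minus strand) for Tubb2b and chr11:101126374-101126402 (plus strand) for Tubg1. The other 6 members had no ATTTA in 3' UTRs of 101 nt (Tuba1c) to 373 nt (Tubb6). Of 13585 genes of the table with a 3' UTR of at least 50 nt, 68.7% held ATTTA at least once. Of the 2596 with 100 to 400 nt, the class of the 6 members without ATTTA, 30.2% held it at least once. In that class 8.59% held it at least 2 times, as Tubb3 does, against 50.4% of the 2950 with 800 to 1500 nt, the class of Tubb5.

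The cells' labelled identity was checked first. Of 17 markers of differentiating muscle, 15 were in the table. They summed to 710848 normalized counts in the HuR library, 706154 in the YB-1 library and 1091926 in the IgG library. Acta1 alone gave 689855 of the IgG sum, against 103252 in HuR and 189406 in YB-1. Single markers went both ways: with each antibody 8 were above IgG and 7 below it. Myog, among those above, had 229849 in HuR and 45679 in YB-1, against 13754 in IgG. Normalized counts are reads divided by the authors' size factor for each library, and the libraries held 24797504 reads (HuR), 39112714 (YB-1) and 10630155 (IgG) over all named rows. The IgG library stood apart. Its 8 endothelial markers summed to 5085 reads, against 2 in HuR and 45 in YB-1, and the 8 markers of adult fast and slow muscle summed to 997337 normalized counts, against 62699 in HuR and 80079 in YB-1. The part of this difference in the ratios to IgG below was not tested. All 3 libraries are described as from extract of the same myoblast line. The source of the endothelial and adult muscle mRNAs in the IgG library was not tested, and no input library was used here. The reads of the IgG library do not enter the ratio of HuR to YB-1, though they may have entered the authors' size factors. Adipocyte markers (6 genes) also summed highest in IgG, at 21354 normalized counts, against 216 in HuR and 112 in YB-1, and the 4 blood cell markers in the table had 42 reads there, against 0 in HuR and 0 in YB-1.

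Most tubulin mRNAs were highest in the YB-1 library and lowest in the IgG library. Of the 10 members, 8 were highest in YB-1, the exceptions being Tubb3 and Tubb5, which were highest in HuR. In IgG 9 were lowest, the exception being Tubb4b, which was lowest in HuR. The share of all genes highest in YB-1 or lowest in IgG was not counted, so these counts have no background here. A member had between 380 reads (Tubg1 in IgG) and 108806 reads (Tuba1a in YB-1), so counting error is small beside most of the differences given.

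**Figure D1:**
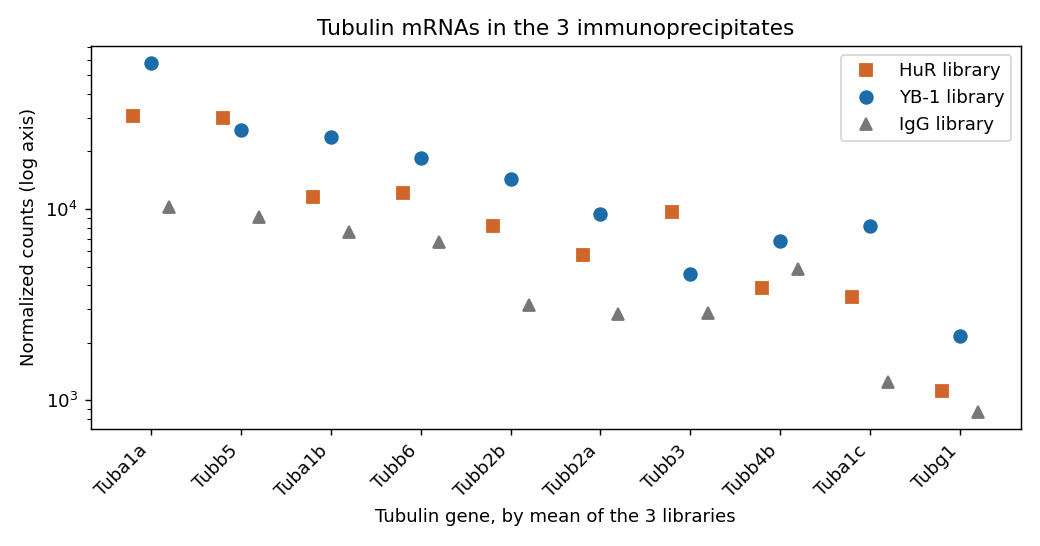
Normalized counts (log axis) of the 10 tubulin mRNAs in the HuR, YB-1 and IgG libraries, 1 point per library, ordered by the mean of the libraries. Tuba1a was the most abundant, at 57810 in YB-1, and Tubb3 and Tubb5 are the members with the HuR point above the YB-1 point.

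Tuba1c and Tuba1a were the members furthest above IgG in the YB-1 library. Tuba1a, a major alpha isotype of developing cells, had a normalized count of 30717 in HuR and 57810 in YB-1, against 10227 in IgG. Its YB-1 level was 5.65 times its IgG level (exact 95% counting interval 5.49 to 5.83), and its log2 ratio of HuR over IgG was 1.59. Such intervals cover counting error in the libraries at hand, not variation between experiments. Tuba1b, expressed in most cells, had 11614 in HuR and 23891 in YB-1, against 7559 in IgG. Tuba1c had 3475 in HuR and 8126 in YB-1, against 1248 in IgG, which puts YB-1 at 6.51 times IgG (5.98 to 7.10). The 3 alpha genes lie close together on chromosome 15 of GRCm38, each with 4 exons. All 3 alpha mRNAs had the order YB-1, HuR, IgG. Tuba1c and Tuba1a lay near the top of the table for YB-1 over IgG, where 120 and 159 of 13022 genes had a ratio at least as high.

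Of the beta-tubulins, Tubb5, the class I isotype found in most cells, and Tubb6, an isotype of regenerating muscle, had the highest means over the libraries. Tubb5 had a normalized count of 29826 in HuR and 25851 in YB-1, against 9119 in IgG. Both antibodies thus lay well above IgG, HuR at 3.27 times (3.17 to 3.38) and YB-1 at 2.84 times (2.75 to 2.93) its level. Tubb6 had 12074 in HuR and 18414 in YB-1, against 6700 in IgG, and was higher than IgG by 1.80-fold in HuR and 2.75-fold in YB-1.

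The class II pair had the same order of libraries. Tubb2b had a normalized count of 8182 in HuR and 14418 in YB-1, against 3164 in IgG, and Tubb2a had 5773 in HuR and 9423 in YB-1, against 2834 in IgG. Their YB-1 levels were 4.56-fold (4.32 to 4.81) and 3.33-fold (3.14 to 3.52) that of IgG. These 2 genes lie on chromosome 13 and have a coding identity of 96.5%, so reads may have been divided between them.

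Tubb3 and Tubb4b departed from the others. Tubb3, the class III isotype best known from neurons, had a normalized count of 9661 in HuR and 4577 in YB-1, against 2841 in IgG. It was the member highest over IgG in HuR, at 3.40-fold (3.21 to 3.61), and 1.61-fold in YB-1 (1.52 to 1.71), a direction that turned (log2 ratio -0.47) when recentred on ribosomal protein genes. Tubb4b, a class IV isotype of axonemes that is also widely expressed, had 3884 in HuR and 6783 in YB-1, against 4833 in IgG, so that IgG lay between the antibodies. In HuR it was at 0.804 of IgG (0.763 to 0.847), and in YB-1 at 1.40 times IgG (1.34 to 1.47), a direction that the ribosomal recentring turned (-0.67). Tubg1, the gamma-tubulin of the nucleating ring complex, was the least abundant member, at 1112 in HuR and 2158 in YB-1, against 872 in IgG. In YB-1 it was at 2.48 times IgG (2.23 to 2.76), and in HuR at 1.28 times IgG (1.14 to 1.43), the HuR direction turning to -0.14 with the same recentring.

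Because Tubb3 is used as a neuronal marker, other neuronal genes were read beside it. Of 13 such genes 11 were in the table. They summed to 2135 normalized counts in HuR, 2844 in YB-1 and 916 in IgG, with 5 of them at 0 in HuR, 4 in YB-1 and 0 in IgG. Of these, Rbfox3, Dcx, Elavl3 and Syp had 0 reads in HuR and 0 in YB-1, against 3, 1, 2 and 38 in IgG. Map2, Gap43, Nefl and Nefm had normalized counts of 167, 172, 107 and 112 in HuR and 86.1, 220.5, 124 and 201 in YB-1. Their IgG values were 126, 96.4, 25.2 and 41.3. Others on the list were above IgG: Stmn2, a stathmin of growing axons, had a normalized count of 811 in HuR and 1561 in YB-1, against 383 in IgG, and Syn1, of synaptic vesicles, had 766 in HuR and 639 in YB-1, against 115 in IgG. Of the 8 neuronal genes with a ratio, 4 reached 2-fold higher in HuR over IgG and 5 in YB-1 over IgG, and 2 reached 2-fold lower in each. Of all genes, 18.9% were that high in HuR over IgG and 17.0% in YB-1 over IgG, and 31.1% and 32.8% that low. The part of the neuronal mRNAs in the Tubb3 values was not tested.

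The ratio of YB-1 over IgG compares each mRNA between the YB-1 library and the control library. Because the IgG library differed in make-up, as given above, a high ratio alone does not show recovery with YB-1. By this ratio 8 of the 10 members reached 2-fold higher, where 17.0% of 13022 genes did, and 0 reached 2-fold lower, where 32.8% did. Among the 3899 genes with a mean of 1000 or more, the abundance range of the members, 20.2% reached 2-fold higher. The members below 2-fold were Tubb3 and Tubb4b. The median log2 ratio of the members was 1.58, against -0.17 for all genes. Recentred on 81 cytosolic ribosomal protein genes, whose own median was 1.16, 3 members (Tuba1c, Tuba1a and Tubb2b) were still at least 2-fold higher. Of all genes, 2.22% were that high after this recentring. Tubb3 and Tubb4b turned to log2 ratios of -0.47 and -0.67.

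In the authors' deposited table, no member passed an adjusted p of 0.05 (DESeq2, 1 library per antibody), and neither did any other gene, though 213 genes and 0 members had an unadjusted p below 0.05. The adjusted p of the members was 0.845 to 0.880. The moderated log2 fold change in the authors' deposited table ran from 0.42 for Tubb4b (standard error 0.77) to 1.89 for Tuba1c (standard error 1.01).

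The same ratio was taken for HuR, with the same limit. In HuR over IgG 6 of the 10 members reached 2-fold higher, where 18.9% of 13024 genes did, and 0 reached 2-fold lower, where 31.1% did. Among the genes with a mean of 1000 or more, 24.2% reached 2-fold higher. The 6 were Tuba1a, Tuba1c, Tubb2a, Tubb2b, Tubb3 and Tubb5. The highest log2 ratios were those of Tubb3 (1.77) and Tubb5 (1.71), and 1066 and 1144 genes of the table had a ratio at least as high. Myog, the mRNA the series centres on, had a log2 ratio of 4.06. The median of the members was 1.20, against -0.16 for all genes. After ribosomal recentring, by a shift of 0.49, 3 members, Tubb3, Tubb5 and Tuba1a, were at least 2-fold higher, where 11.3% of all genes were. Tubg1 turned to -0.14. Both comparisons use the same IgG library, so their members' ratios are not independent.

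**Figure D2:**
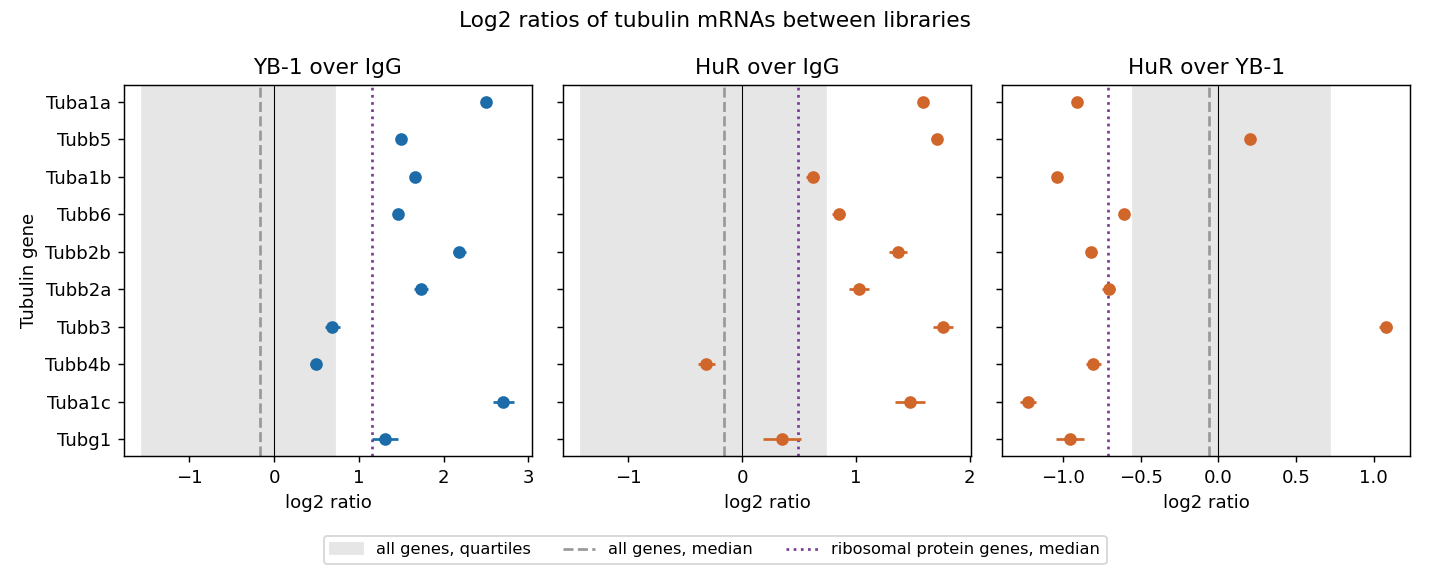
Log2 ratios of the 10 tubulin mRNAs in YB-1 over IgG, HuR over IgG and HuR over YB-1, with exact 95% counting intervals. Grey bands give the quartiles of all genes, dashed lines their median (-0.17, -0.16 and -0.06) and dotted lines the median of ribosomal protein genes. Tubb3 and Tubb5 are the members to the right of 0 in HuR over YB-1.

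HuR over YB-1 differed in direction among the members, though few reached 2-fold. Tubb3 was 2.11-fold higher in HuR than in YB-1 (2.05 to 2.17) and Tubb5 1.15-fold higher (1.14 to 1.17). The other 8 members were lower in HuR, though Tubb6 and Tubb2a turned to 0.10 and 0.0060 when recentred on ribosomal protein genes. Their log2 ratios were -0.61 for Tubb6, -0.71 for Tubb2a, -0.80 for Tubb4b, -0.82 for Tubb2b, -0.91 for Tuba1a, -0.96 for Tubg1, -1.04 for Tuba1b and -1.23 for Tuba1c. By this ratio 1 member (Tubb3) reached 2-fold higher, where 19.3% of 11868 genes did, and 2 members (Tuba1b and Tuba1c) reached 2-fold lower, where 10.6% did. The median of the members was -0.81, against -0.06 for all genes, and 92.8% of genes had a ratio at least as high as that of Tuba1c. For comparison, 17.9% of genes had a ratio at least as high as that of Tubb3, and 39.2% as that of Tubb5. The ratio of Tubb5 lay within the quartiles of all genes, -0.55 to 0.72. Ribosomal protein mRNAs had a median of -0.71, so most members lay near them. Tubb3 and Tubb5 lay above 0 under each of the 3 other scalings, and the other members, save Tubb2a and Tubb6, below 0.

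The members above 0 in HuR over YB-1 were those with 2 ATTTA each in the 3' UTR, the sites shown above. With 1 ATTTA, Tubb2b and Tubg1 had log2 ratios of -0.82 and -0.96, inside the range of the 6 members with none, -1.23 to -0.61. Tubb5 also held the longest run of T, 26 bases, and 0.802% of 3' UTRs had a run at least as long; the median over genes was 6. In Tubb3 and Tubb2b the longest run was 7. The U-rich pentamer TTTTT, counted with overlaps, occurred 38 times in Tubb5, 6 in Tubb2b, 4 in Tubb3 and 1 in Tubb6. It was absent from the other members. Tubb2b, at -0.82, thus held more TTTTT than Tubb3, at 1.08. TTTTT was held by 76.5% of all 3' UTRs and by 39.7% of those with 100 to 400 nt. For YB-1 the tetramer CATC was counted in the same way. It occurred 5 times in Tubb5, 2 times each in Tubb3 and Tubb6, once each in Tuba1c, Tubb2b, Tubb4b and Tubg1, and not in Tuba1a, Tuba1b or Tubb2a. CATC was held by 85.9% of all 3' UTRs and by 55.05% of those with 100 to 400 nt. These counts describe 10 transcripts chosen as a family and say nothing of binding at any site.

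**Figure D3:**
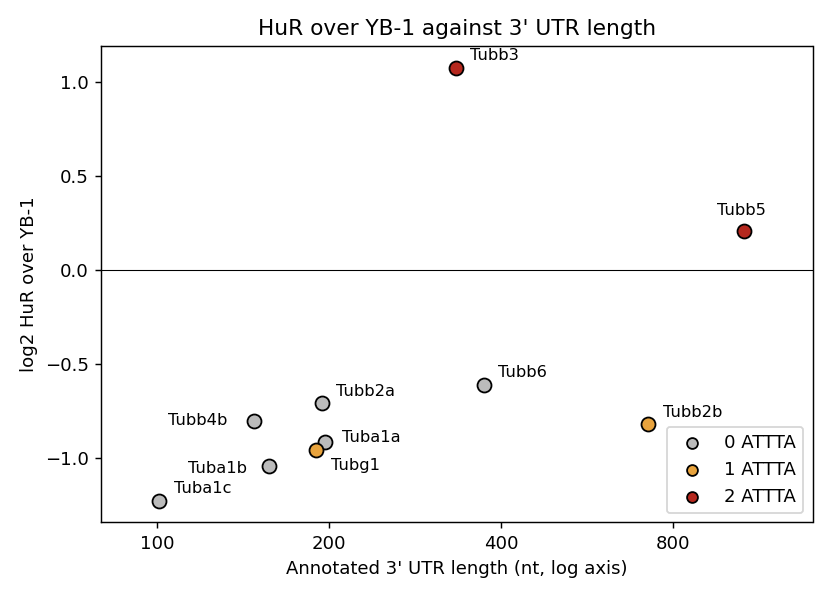
Log2 ratio of HuR over YB-1 against annotated 3' UTR length (nt, log axis) for the 10 tubulin mRNAs, 1 point per gene, coloured by the number of ATTTA. Tubb3 (333 nt) and Tubb5 (1061 nt), each with 2 ATTTA, lie above 0, and Tubb2b, with 723 nt and 1, lies at -0.82.

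The make-up of each tubulin pool is free of any scaling of one library to another. Of the reads in the 15403 genes used (24722166 in HuR, 39038366 in YB-1 and 10617029 in IgG), the 10 members took 0.546% in HuR, 0.827% in YB-1 and 0.203% in IgG. Alpha mRNAs made up 39.8% of alpha and beta member reads in HuR (exact 95% binomial interval 39.5 to 40.0), 53.1% in YB-1 (52.9 to 53.2) and 39.2% in IgG (38.6 to 39.9). The YB-1 library was therefore the one richer in alpha mRNA.

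Within the beta pool Tubb5 took 43.0% of reads in HuR, 32.5% in YB-1 and 30.9% in IgG. Tubb3 took 13.9% in HuR (13.7 to 14.2), 5.76% in YB-1 (5.64 to 5.88) and 9.63% in IgG (9.13 to 10.2), so its share was highest in HuR and lowest in YB-1, with intervals that do not overlap. Tubb2b took 11.8% in HuR, 18.1% in YB-1 and 10.7% in IgG, and Tubb4b 5.60% in HuR, 8.54% in YB-1 and 16.4% in IgG. Tubb6 took 17.4% in HuR, 23.2% in YB-1 and 22.7% in IgG. Within the alpha pool Tuba1a took 67.1% in HuR, 64.4% in YB-1 and 53.7% in IgG, and Tuba1b 25.4% in HuR, 26.6% in YB-1 and 39.7% in IgG. Tuba1b thus made up a larger part of the alpha pool in IgG than with either antibody.

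**Figure D4:**
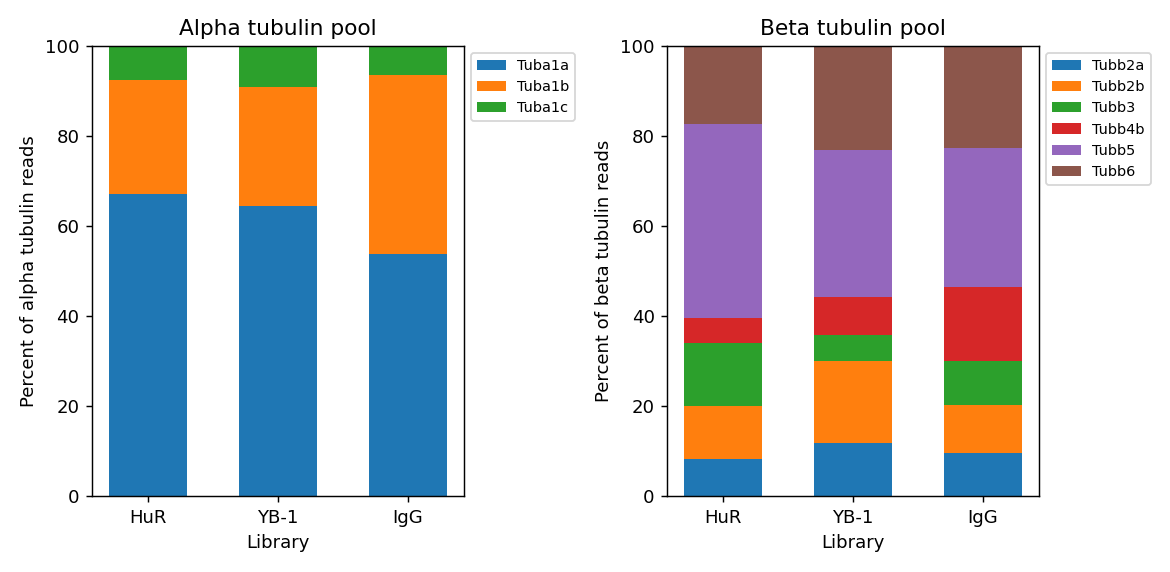
Percent of alpha-tubulin reads (left) and beta-tubulin reads (right) taken by each isotype in the HuR, YB-1 and IgG libraries; each bar sums to 100. Tubb5 and Tubb3 take a larger part of the beta pool in HuR (43.0% and 13.9%) than in YB-1 (32.5% and 5.76%), and Tubb4b is largest in IgG (16.4%).

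Levels were compared between genes as normalized counts per kb of exonic length, the union of the exons of all transcripts of a gene. The order depends on this choice: for Tubb6 the union is 2437 nt, against 1758 nt in its principal transcript. Tuba1a led in every library, at 17037 per kb in HuR, 32063 in YB-1 and 5672 in IgG, and Tubg1 was last, at 491 in HuR, 952 in YB-1 and 385 in IgG. Tubb3 was the fourth member in HuR, at 5172 per kb, the ninth in YB-1, at 2450, and the seventh in IgG, at 1521. Neighbours in the order whose counting intervals overlapped were Tubb2a and Tubb2b in HuR, and Tubb6 with Tubb5 and Tubb3 with Tubb2b in IgG. In YB-1 no neighbours overlapped.

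Some of these values rest on reads that other genes could claim. Of the 50-base stretches of the transcript, 72.9% in Tuba1a, 73.8% in Tuba1b and 61.0% in Tuba1c also occur in transcripts of another gene, as do 49.6% in Tubb2a and 39.3% in Tubb2b. In Tubb4b 50.9% are shared, most with the pseudogene Tubb4b-ps1, and in Tubg1 14.1%, most with Tubg2. In Tubb3 and Tubb6 0 were shared, and in Tubb5 0.115%, so the values of Tubb3, Tubb5 and Tubb6 involve almost no such stretches. How the authors assigned shared reads is not given in the sources used here, and the values of the alpha isotypes, of Tubb2a, Tubb2b and Tubb4b and, less so, of Tubg1 are uncertain to that extent. Tuba1a and Tuba1b overlap exons of Gm49450 on the same strand, and 121 exonic bases of Tubb4b overlap Fam166a on the other strand. Neither of these genes has a row in the table.

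The tubulin genes outside the 10 members were at low levels or were highest in IgG. Tuba4a, an alpha isotype encoded without the C-terminal tyrosine, had a normalized count of 3660 in HuR and 8749 in YB-1, against 13683 in IgG, which is a log2 ratio of -1.90 in HuR and -0.65 in YB-1. Tuba8, an isotype of heart and adult muscle, had 0 reads in HuR and 2 in YB-1, against 1630 in IgG. In HuR it was 1446-fold lower than in IgG when the library at 0 is set to a floor of 3 reads, and the counting interval reached down to 1175-fold. Tubg2 had 0 reads in HuR and 0 in YB-1, against 27 in IgG, and Tubb1, the platelet isotype, 0 in HuR and 0 in YB-1, against 1 in IgG. Tubb4a, of the nervous system, had 0 reads in HuR and 25 in YB-1, against 12 in IgG. The basal body tubulins Tubd1 and Tube1 had log2 ratios to IgG of -0.19 and -0.68 in HuR and -0.27 and -0.79 in YB-1. The counting intervals of both ratios included 1 for Tubd1 and Tube1, as did that of YB-1 over IgG for Tubb4a. Counting error alone thus spans these differences, and none was tested. Tuba4a, Tuba8 and Tubg2 lay below IgG with both antibodies. Adult muscle and endothelial markers were likewise highest in IgG, as given above, and their part in these values was not tested.

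Genes that serve tubulin were read as lists, whose medians stand beside those of all genes given above. The 20 folding genes make up the CCT chaperonin, prefoldin and the tubulin cofactors. In YB-1 over IgG 4 of the 20 reached 2-fold higher, where 17.0% of all genes did, and 2 lower, where 32.8% did. In HuR over IgG 3 were higher, where 18.9% of all genes were, and 1 lower, where 31.1% were. The median log2 ratios of the list were 0.36 in YB-1 over IgG, 0.47 in HuR over IgG and -0.24 in HuR over YB-1. The chaperonin subunits Cct2 and Cct5 had log2 ratios over IgG of 0.72 and 0.50 in HuR, and 0.75 and 1.06 in YB-1. The prefoldin subunit Pfdn2 had a normalized count of 11651 in HuR and 1168 in YB-1, against 1030 in IgG. Arl2, a small GTPase of the cofactor pathway, was the lowest of the list in HuR over YB-1, at -1.22.

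Of 21 genes of the gamma-tubulin ring complex and nucleation, 1 reached 2-fold higher in YB-1 over IgG and 8 lower. Of all genes, 17.0% were that high and 32.8% that low. In HuR over IgG 2 of the list were higher, where 18.9% of all genes were, and 5 lower, where 31.1% were. The median log2 ratios of the list were -0.74 in YB-1 over IgG, -0.28 in HuR over IgG and 0.10 in HuR over YB-1. Mzt1, a small subunit of the ring complex, had a normalized count of 3754 in HuR and 399 in YB-1, against 693 in IgG, whereas Tubgcp2, a core subunit, had 470 in HuR and 866 in YB-1, against 668 in IgG. The most abundant of these genes were Ckap5, a microtubule polymerase, and Pcnt, a scaffold of the centrosome, with log2 ratios over IgG of -0.39 and -2.05 in HuR, and -0.39 and -2.12 in YB-1.

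Of 17 genes of tubulin modification, 6 reached 2-fold higher in YB-1 over IgG, where 17.0% of all genes did, and 4 lower, where 32.8% did. In HuR over IgG 4 of the list were higher, where 18.9% of all genes were, and 5 lower, where 31.1% were. The medians of the list were 0.12 in YB-1 over IgG, 0.15 in HuR over IgG and -0.39 in HuR over YB-1. Vash2, which removes the C-terminal tyrosine of alpha-tubulin, had a normalized count of 3841 in HuR and 2542 in YB-1, against 805 in IgG. The deacetylase Sirt2 had 1098 in HuR and 1767 in YB-1, against 2224 in IgG. Ttc5, the factor of tubulin autoregulation, had 610 in HuR and 291 in YB-1, against 298 in IgG, and had the list's highest ratio of HuR over YB-1, 2.10-fold. The lowest was that of Agbl5, a deglutamylase, at a log2 ratio of -1.11.

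Bgn and Lsp1 were among the genes with the ratios most like those of Tuba1a, by the distance over log2 YB-1 over IgG and log2 HuR over IgG among 6139 genes with a mean of 500 or more. Their distances were 0.13 and 0.18 over the 3 libraries. The nearest to Tubb5 were Hn1l, Fam96b and Cfdp1, at 0.02 to 0.05.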

How the data were processed

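There was 1 RIP-seq library per antibody, per the labels. Per the submitters' processing notes, the tools were TopHat2 2.0.10, HTSeq 0.6.1 and DESeq2, and the build mm10 (GRCm38). Their parameters and the strand setting are not stated. The deposited signal is reads per gene divided by a size factor, and baseMean is its mean. The deposited table also holds the authors' log2 fold changes of YB-1 over IgG, the Wald score, and the p-value and adjusted p-value.

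Whole reads were recovered for 100% of values (within 0.01 read), with 1 read worth 0.862 normalized counts in HuR, 0.531 in YB-1 and 2.29 in IgG. No count model was fitted, because 1 library per antibody gives no spread. The 25 rows with a date for a symbol, of 15428, were left out. Ratios were unmoderated, a library at 0 was given a floor of 3 reads, and genes at or under that floor in both libraries got no ratio. Genes needed a mean of 10 over the 3 libraries, or over HuR and YB-1 for their ratio. Intervals are exact Clopper-Pearson and, per kb, Poisson at 95%. The recovery of reads and ratios was checked on simulated data. Transcripts came from GENCODE M21 (GRCm38), 1 principal coding transcript per gene, for 13834 of 15403 genes. Exonic lengths came from the same source and are the union of the exons of all transcripts of a gene.

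The genes and lists were chosen with earlier results of these data known. Named were all tubulin genes, and in each list the most abundant pair and the extremes of HuR over YB-1 at a mean of 50 or more. Computation used Python 3.11.15, pandas 2.3.3, scipy 1.17.1 and Biopython 1.88.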

Additional observations from a re-analysis of the deposited data

How the results depend on the processing

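No paired analysis was possible because each antibody has 1 library, and for the same reason no library could be left out. Alternatives were scaling to total reads, recentring on ribosomal protein genes or on the median gene, a 1.5-fold threshold, a floor of 1 read, a minimum mean of 50 or none, and the authors' moderated fold; the counts under the moderated fold, and the all-gene shares at a mean of 1000 or more, at 1.5-fold and on the median gene, were added after the data were seen. After recentring on ribosomal protein genes, members at least 2-fold higher became 3 in YB-1 over IgG and 3 in HuR over IgG, and members at least 2-fold lower in HuR over YB-1 became 0. The last count was 1 after recentring on the median gene, where 9.83% of all genes were that low, and 8 at 1.5-fold, where 23.5% were. At 1.5-fold, 28.8% of all genes were higher in YB-1 over IgG and 28.7% in HuR over IgG. The median log2 ratio in YB-1 over IgG was 1.81 scaled to total reads, 0.43 after ribosomal recentring, 1.75 on the median gene and 1.25 by the authors' deposited table. In HuR over IgG it was 1.39 and 0.71 under the first pair of these, and in HuR over YB-1 it was -0.10 after ribosomal recentring. Directions turned only under ribosomal recentring, for Tubb3 (-0.47) and Tubb4b (-0.67) in YB-1 over IgG, Tubg1 (-0.14) in HuR over IgG, and Tubb2a (0.0060) and Tubb6 (0.10) in HuR over YB-1. These moves follow from the shift itself, which also moved the share of all genes at least 2-fold higher to 2.22% in YB-1 over IgG, 11.3% in HuR over IgG and 36.2% in HuR over YB-1, and at least 2-fold lower to 59.1% in YB-1 over IgG and 3.89% in HuR over YB-1. At a mean of 1000 or more, the share at least 2-fold lower was 21.8% in YB-1 over IgG, 19.0% in HuR over IgG and 5.05% in HuR over YB-1. Per exonic length the share of Tubb5 in the beta pool was 31.9% in HuR, 23.4% in YB-1 and 22.0% in IgG, and that of Tubb3 was 18.4% in HuR, 7.39% in YB-1 and 12.2% in IgG. Depth limits Tubb1, Tubb4a, Tube1 and Tubg2, with 0 to 30 reads a library.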

Other observations

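Genes that bind, take apart or walk along microtubules were mixed. In YB-1 over IgG 17.0% of all genes reached 2-fold higher and 32.8% lower, and in HuR over IgG 18.9% higher and 31.1% lower. Of 24 microtubule-associated protein genes with a ratio, 1 reached 2-fold higher in YB-1 over IgG and 7 lower. In HuR over IgG 2 were higher and 8 lower. Their medians were 0.07 in YB-1 over IgG and -0.12 in HuR over IgG. Mapre1, which tracks growing plus ends, had a normalized count of 6918 in HuR and 3275 in YB-1, against 2265 in IgG, and Map1lc3a, the autophagy protein first found on microtubules, had 2837 in HuR and 6351 in YB-1, against 4023 in IgG. The most abundant, Map7d1 and Map4, had log2 ratios over IgG of 0.14 and -0.84 in HuR, and 0.25 and -0.70 in YB-1. Of 12 destabilisers and severing enzymes, beside the same shares of all genes, 6 reached 2-fold higher in YB-1 over IgG and 2 lower. In HuR over IgG 3 were higher and 0 lower. The medians of this list were 0.76 in YB-1 over IgG and 0.30 in HuR over IgG. Stmn1, which sequesters tubulin dimers, had 2415 in HuR and 3418 in YB-1, against 1058 in IgG, and the severing enzyme Spast had 1381 in HuR and 812 in YB-1, against 1388 in IgG. Among its genes with a mean of 50 or more, HuR over YB-1 was lowest for Stmn4, at -1.15, and highest for Kif2a, a depolymerising kinesin, at 1.48.

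Of 22 motor genes, 5 reached 2-fold higher in YB-1 over IgG, where 17.0% of all genes did, and 4 lower, where 32.8% did. In HuR over IgG 6 motor genes were higher, where 18.9% of all genes were, and 3 lower, where 31.1% were. The medians of the motor genes were 0.02 in YB-1 over IgG and 0.32 in HuR over IgG. In HuR over YB-1, 7 reached 2-fold higher, where 19.3% of all genes did, and 1 lower, where 10.6% did, and the median was 0.16. The dynein light chain Dynll1 had a normalized count of 18999 in HuR and 7955 in YB-1, against 2577 in IgG, and the kinesin heavy chain Kif5c had 1163 in HuR and 163 in YB-1, against 115 in IgG. Kif1c, the most abundant motor mRNA, had log2 ratios over IgG of -1.69 in HuR and -1.45 in YB-1, and the dynactin subunit Dctn3 had the lowest ratio of HuR over YB-1 at a mean of 50 or more, -0.91.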
